A study of Mus musculus with 6 samples.

Results

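The genes described here are the liver X receptors and the sterol efflux transporters. They are the nuclear receptor genes Nr1h3 (LXR-alpha) and Nr1h2 (LXR-beta), the biliary transporter genes Abcg5 and Abcg8, and the plasma-side transporter genes Abca1 and Abcg1. The 6 genes were found by their gene symbol among the 20673 genes of the deposited tables, and their read counts were joined by Ensembl identifier. RNA was sequenced from the livers of C57BL/6J mice, bought from the Jackson Laboratory, that were fed a regular diet (RD, a Teklad chow) or a high-cholesterol diet (HCD, TD.88051) for 3 days, with 3 livers per diet and 1 library per liver. The mice carried no transgene and were about 12 weeks old, and both sexes were used in the study. The HCD contains cocoa butter, cholesterol and sodium cholate and no cholate is listed for the RD, so cholesterol, fat and cholate cannot be told apart as parts of the diet. The comparison asked how 3 days of HCD changed hepatic gene expression.

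LXR-alpha and LXR-beta are nuclear receptors that bind oxysterols, the oxidised forms of cholesterol, and act on DNA as a heterodimer with a retinoid X receptor. Their known targets include the transporters that move sterol out of cells and genes of fatty acid synthesis. In the liver, ABCG5 and ABCG8 form an obligate heterodimer in the canalicular membrane that secretes cholesterol and plant sterols into bile, whereas ABCA1 loads cholesterol and phospholipid onto apolipoprotein A-I to form HDL, and ABCG1 moves cholesterol to lipidated HDL and is abundant in macrophages.

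The libraries held 13771630 to 23129576 counts on genes. A library's counts were scaled to a common total with edgeR's TMM factors and are given as CPM. Values of single livers are listed in the order of the replicate numbers, from 1 to 3. HCD replicate 1 stood apart from the other 5 livers in its sex-linked genes, with 5032 Xist counts against 0 in the others and with 0 counts on each of 4 Y-linked genes that all other livers expressed. The labels give no sex per liver. By these genes every RD liver had the male pattern and HCD replicate 1 the female pattern, so sex was not balanced between the diets. Values without HCD replicate 1 are therefore given beside the member results. The hepatocyte markers fitted the label of the tissue. The summed level of 10 hepatocyte genes was 88857 to 121385 CPM with RD and 96319 to 140224 CPM with HCD, and none of the 10 was called.

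HCD raised 3 of the 6 genes and lowered none. Abcg5 and Abcg8 rose together by more than 6-fold, Abcg1 rose by about 4-fold from a low level, and Abca1, Nr1h3 and Nr1h2 did not pass the test. A gene was called when its adjusted p was under 0.05, by the quasi-likelihood F test of edgeR, adjusted by Benjamini and Hochberg's method across 13105 genes. All 6 members passed the filter on low counts and were tested. Of all genes tested, 3.27% were called in either direction, 1.95% higher and 1.32% lower with HCD, so that 3 of 6 members called higher lies above the background of the table. The same 3 members had CPM that did not overlap between the diets, as did 27.6% of all genes tested. In DESeq2, where 7.2% of genes were called, the same 3 members were called. The median log2 fold change of HCD over RD over all genes tested was 0.0074, with 50.69% of genes above 0. In liver RNA, a change in the share of the cells that express a gene and a change in its RNA per cell cannot be told apart.

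**Figure D1:**
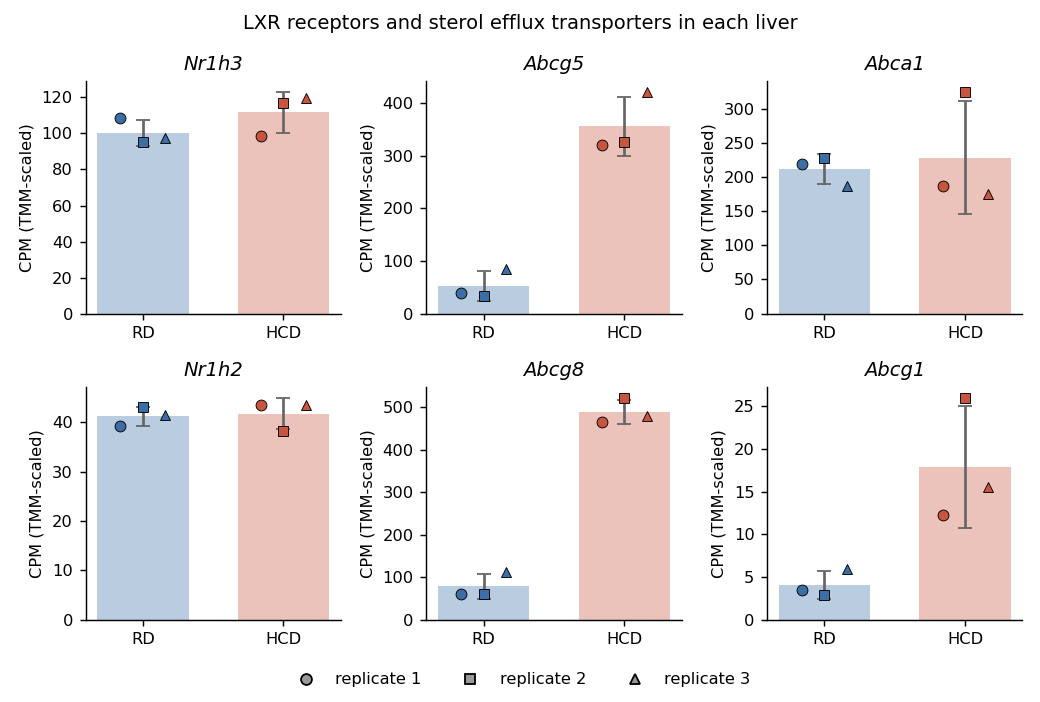
TMM-scaled CPM of each gene in each liver; bars are means and error bars SD of 3 livers, and symbols mark the replicate. Abcg5, Abcg8 and Abcg1 were higher in every HCD liver than in any RD liver, whereas Nr1h3, Nr1h2 and Abca1 overlapped between the diets.

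Nr1h3 encodes LXR-alpha, the LXR form most abundant in liver. It lies on chromosome 2 of GRCm38 (chr2:91184061-91202834, minus strand; ENSMUSG00000002108). Nr1h3 was at 108, 95.02 and 97.6 CPM with RD and at 98.7, 117 and 120 CPM with HCD. HCD replicate 1 lay within the range of the RD livers, and the other HCD livers lay above it. The Nr1h3 log2 fold change was 0.15 (SE 0.13), with an adjusted p = 0.543 in edgeR, and the 95% CI of its fold ran from 0.903 to 1.37. Without HCD replicate 1 its log2 fold change was 0.235, with an adjusted p = 0.36 in edgeR.

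Nr1h2 encodes LXR-beta, which is expressed in most tissues. It lies on chromosome 7 of GRCm38 (chr7:44549616-44553951, minus strand; ENSMUSG00000060601). Nr1h2 was at 39.2, 43.0 and 41.6 CPM with RD and at 43.6, 38.2 and 43.6 CPM with HCD. The lowest liver of all was HCD replicate 2, and the range of all 6 livers was narrow. The Nr1h2 log2 fold change was 0.018 (SE 0.13, adjusted p = 0.953 in edgeR), and the 95% CI of its fold ran from 0.829 to 1.24. Its sign turned with library sizes alone as the scaling and without RD replicate 1, HCD replicate 1 or HCD replicate 3, where the log2 fold change lay between -0.046 and -0.014, so no direction is given for this gene. Both receptor genes varied little among livers of the same diet, with a coefficient of variation of 7.05% with RD and 10.1% with HCD for Nr1h3 and of 4.68% and 7.46% for Nr1h2. In deposited FPKM, which are scaled by gene length, Nr1h3 was 2.94 to 3.68 times Nr1h2 in the RD livers and 3.02 to 4.07 times in the HCD livers.

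Abcg5 and Abcg8 lie head to head on chromosome 17 of GRCm38. Abcg5 (ENSMUSG00000040505) spans chr17:84658234-84683011 on the minus strand and Abcg8 (ENSMUSG00000024254) spans chr17:84676302-84700333 on the plus strand, since a longer Abcg8 transcript starts inside Abcg5. The gene models share 82 exon bases on opposite strands, which is 3.02% of the exon bases of Abcg5 and 2.19% of those of Abcg8. No source used here says whether the counting used strand, so reads in these 82 bases cannot be assigned. The RefSeq starts of the pair that lie closest to each other, on GRCm38.p6, are 110 bases apart at positions 84683011 and 84683121. The stretch between the starts is shown because the pair that moved together is transcribed away from it in both directions. It is the 109 bases of chr17:84683012-84683120, plus strand, with GATAA or its reverse complement TTATC, the core bound by GATA factors, in capitals.
Abcg5-Abcg8: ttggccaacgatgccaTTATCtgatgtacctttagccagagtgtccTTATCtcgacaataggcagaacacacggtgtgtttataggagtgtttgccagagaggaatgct
The Abcg8 promoter window at this start, from 250 bases before to 50 after it, held GATAA on either strand 3 times, of which 2 are in the printed stretch. The overlapping Abcg5 window also held 3, and the other Abcg8 window, at chr17:84676052-84676351, held 0. Of 32850 RefSeq windows of the same length, 25.41% held at least 1 and 0.938% held 3 or more. The search for GATAA was chosen after these windows were seen, so the share describes the motif and is no test of the pair. A direct repeat of AGGTCA with 4 bases between the repeats (DR4), the element that LXR is known to bind, was searched on both strands. None of these windows held it with at most 1 mismatch in each repeat, as 1.75% of all windows did, and 0.0152% held it exactly.

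Abcg5 was at 40.0, 33.6 and 85.5 CPM with RD. It was at 321, 326 and 420 CPM with HCD. RD replicate 3 was 2.32 times the mean of the other RD livers, and the lowest HCD liver was still 3.75 times this highest RD liver. The Abcg5 log2 fold change was 2.74 (SE 0.35), a 6.70-fold rise with a 95% CI of 3.86 to 11.6 and an adjusted p = 0.0104 in edgeR. Its call was lost without RD replicate 1 (log2 fold change 2.57, adjusted p = 0.0617 in edgeR). It was kept when any other liver was left out, including HCD replicate 1, without which the log2 fold change was 2.81 (adjusted p = 0.0141 in edgeR).

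Abcg8, the partner half-transporter, was at 61.4, 60.6 and 113 CPM with RD and at 465, 521 and 480 CPM with HCD. RD replicate 3 again had the highest RD value, at 1.86 times the mean of the other RD livers. This liver also had the highest summed levels of Kupffer cell (287 CPM), endothelial (293 CPM) and stellate cell markers (387 CPM) of its diet and the lowest of cholangiocyte markers (43.2 CPM). Its hepatocyte sum was the highest too (121385 CPM), mostly from Alb at 91138 CPM. Among the RD livers, Alb, Cps1, Ass1, Tat, Pck1 and Hpd were highest in this liver. Hnf4a, Apob and Cyp2e1 were lowest in it, and Ttr lay between the other RD livers. The part of these differences in its values was not tested. The HCD livers lay close together, with a coefficient of variation of 5.89% against 38.6% with RD. The Abcg8 log2 fold change was 2.64 (SE 0.26), a 6.22-fold rise with a 95% CI of 4.11 to 9.41 and an adjusted p = 0.00407 in edgeR. Its call held under all 16 alternatives, among them leaving out each liver in turn, and without HCD replicate 1 its log2 fold change was 2.67. The smallest p that an exact two-sided permutation test of 3 livers against 3 can give is 0.10, and Abcg5, Abcg8 and Abcg1 each reached it. The proportion of the pair was similar in size with both diets. In FPKM, Abcg5 was 0.900, 0.768 and 1.04 times Abcg8 with RD and 0.953, 0.867 and 1.21 times Abcg8 with HCD, so that the ranges of the ratio overlapped.

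Abca1 (ENSMUSG00000015243) lies on chromosome 4 of GRCm38 (chr4:53030787-53159895, minus strand). Its upstream stretch is shown as the contrast to the biliary pair, because Abca1 held a DR4-like match and did not pass the test. It is the 100 bases before the RefSeq start on GRCm38.p6, chr4:53159896-53159995, minus strand, with the repeats of the match in capitals.
Abca1: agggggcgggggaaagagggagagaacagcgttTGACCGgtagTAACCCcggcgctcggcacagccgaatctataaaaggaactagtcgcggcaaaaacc
The match lies 67 to 52 bases before the start on the strand opposite to the gene and has 3 mismatches over the 12 bases of the repeats. A window of Srebf1, an LXR target that rose with HCD, held a match at chr11:60210638-60210653, plus strand, 182 to 167 bases before the third of its RefSeq starts. These 2 matches are shown on their own strand, with the repeats in capitals and the spacer in lower case.
Abca1 match: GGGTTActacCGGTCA
Srebf1 match: GGGTTActggCGGTCA
A match with at most 3 mismatches is common, since 21.88% of all windows held one. A window of Nr0b2, which was called higher, and a window of Rxra, which was called lower, also held one. The 3 windows of Apoe and the windows of Rxrg, both called higher, held none. The other windows of Srebf1 and Rxra held none either. The windows of Abcg5, Abcg8, Nr1h3 and Nr1h2 held none. A match describes letters in these windows and is no evidence of binding.

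Abca1 was at 219, 228 and 187 CPM with RD and at 187, 324 and 175 CPM with HCD. Only HCD replicate 2 lay above the RD livers, at 1.80 times the mean of the other HCD livers, which were at or below the lowest RD liver. The Abca1 log2 fold change was 0.11 (SE 0.24, adjusted p = 0.831 in edgeR), and the 95% CI of its fold ran from 0.738 to 1.58. The bound of 1.58-fold lies below the lower bounds of Abcg5, Abcg8 and Abcg1. HCD replicate 2 decided the sign, since without it the log2 fold change was -0.24 (adjusted p = 0.42 in edgeR). Without HCD replicate 1 it was 0.24.

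Abcg1 (ENSMUSG00000024030) lies on chromosome 17 of GRCm38 (chr17:31057675-31117988, plus strand), far from the biliary pair. It was the least abundant member, at 3.46, 2.93 and 5.99 CPM with RD and at 12.3, 25.9 and 15.5 CPM with HCD. RD replicate 3 was again the highest RD liver, and HCD replicate 2 was the highest HCD liver, at 1.87 times the mean of the others. The lowest HCD liver was 2.05 times the highest RD liver. The Abcg1 log2 fold change was 2.10 (SE 0.36), a 4.28-fold rise with a 95% CI of 2.42 to 7.59 and an adjusted p = 0.0258 in edgeR. The call was less secure than those of the biliary pair. It was lost without RD replicate 1 (adjusted p = 0.128 in edgeR), RD replicate 2 (0.119), HCD replicate 2 (0.0502) or HCD replicate 3 (0.0725), and with the replicate number as a block (0.0632). The log2 fold change stayed between 1.73 and 2.47 when each liver was left out, and it was 2.31 without HCD replicate 1, where the call held.

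**Figure D2:**
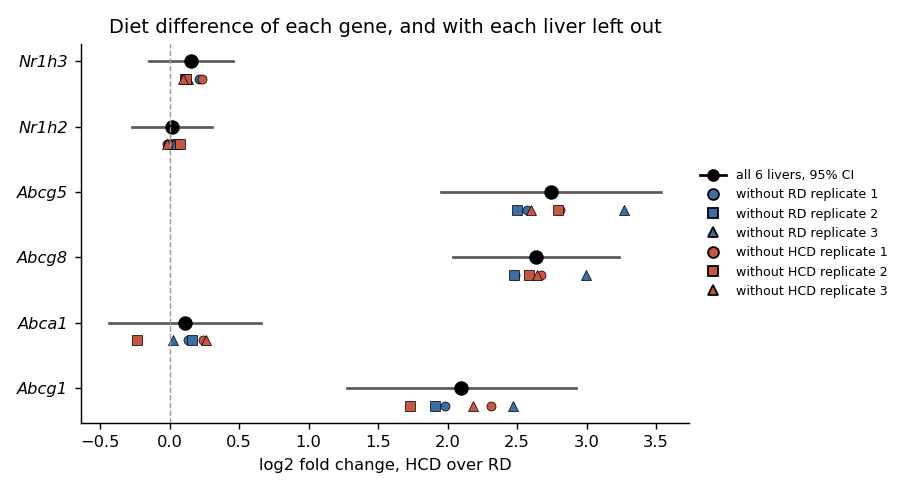
Log2 fold change of HCD over RD for each gene with its 95% CI (black), and the same with each of the 6 livers left out (coloured symbols under each line). The intervals of Abcg5, Abcg8 and Abcg1 lie above 0, those of Nr1h3, Nr1h2 and Abca1 include 0, and Abca1 falls below 0 without HCD replicate 2.

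Both biliary genes rose with HCD, whereas of the plasma-side genes Abcg1 rose and Abca1 did not pass the test. The size of the gap between the sides is described and was not tested. The mean of log2(CPM + 0.5) over Abcg5 and Abcg8 was 5.93 ± 0.61 with RD and 8.70 ± 0.11 with HCD (SD, n = 3). The mean over Abca1 and Abcg1 was 4.94 ± 0.17 with RD and 5.96 ± 0.50 with HCD. The biliary mean less the plasma-side mean was 0.76, 0.70 and 1.503 with RD and 2.98, 2.16 and 3.09 with HCD. Every HCD liver lay above every RD liver, RD replicate 3 was the highest of its diet and HCD replicate 2 the lowest of its diet. CPM are not scaled by gene length, so only the change of this quantity between the diets is read, and that change was 1.75. Against Abca1 alone it was 2.71, with liver values of -2.13, -2.33 and -0.92 with RD and 1.05, 0.35 and 1.36 with HCD, again without overlap. Against Abcg1 alone it was 0.79, with 3.66 to 3.93 in the RD livers and 3.97 to 4.92 in the HCD livers, where HCD replicate 2 was just above the highest RD liver. With single livers left out, the difference from the plasma-side mean was 1.58 to 2.05. These differences are scores over the members and were given no p.

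**Figure D3:**
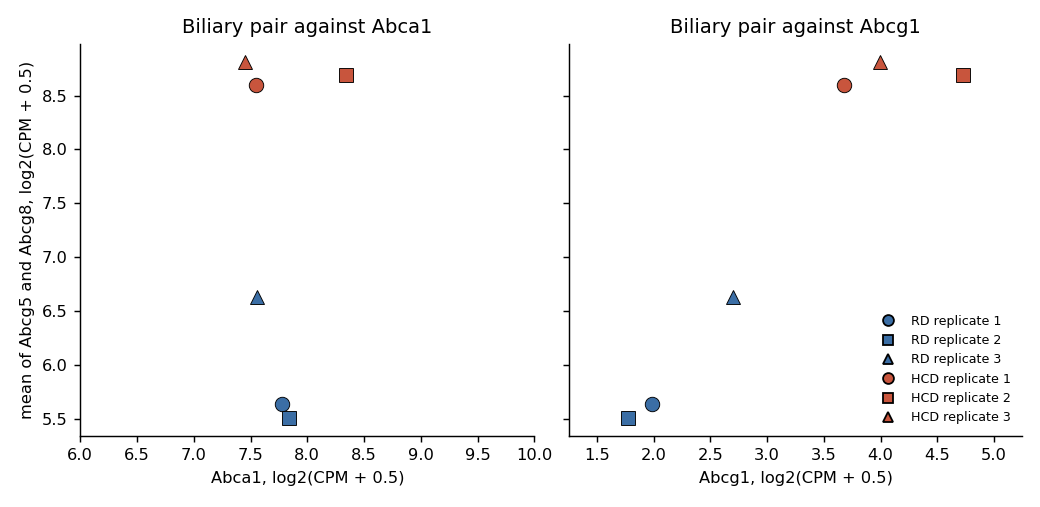
Mean log2(CPM + 0.5) of Abcg5 and Abcg8 in each liver against Abca1 (left) and Abcg1 (right), with horizontal axes of equal length; colour marks the diet and symbols the replicate. The HCD livers lie above the RD livers in both panels, shifted to the right for Abcg1 only, and HCD replicate 2 lies farthest right in both.

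In FPKM, which allow levels of different genes to be compared per gene length, the order of the members changed with the diet. With RD the means were 58.3 ± 4.24 FPKM (SD, n = 3) for Nr1h3, 30.8 ± 12.6 for Abcg8, 29.8 ± 2.43 for Abca1, 28.8 ± 15.98 for Abcg5, 18.0 ± 0.847 for Nr1h2 and 1.49 ± 0.624 for Abcg1. Abcg8, Abca1 and Abcg5 did not differ beyond their spread with RD, and the lowest Abcg5 liver overlapped Nr1h2. With HCD the means were 195 ± 32.5 FPKM for Abcg5, 193 ± 6.99 for Abcg8, 65.8 ± 6.15 for Nr1h3, 32.6 ± 11.04 for Abca1, 18.5 ± 1.78 for Nr1h2 and 6.495 ± 2.43 for Abcg1. Abcg5 and Abcg8 did not differ beyond their spread with HCD, and the other neighbours in this order did not overlap. Ranked by mean FPKM among all 20673 genes, Abcg5 went from place 1856 to 401 and Abcg8 from 1759 to 406. Abcg1 went from place 9833 to 5385. Abca1 stayed near its place, at 1800 with RD and 1762 with HCD, as did Nr1h3 at 1045 and 1030. Within a liver, Abcg8 was 0.733 to 1.67 times Abca1 with RD and 4.44 to 7.60 times Abca1 with HCD, and Abca1 was 12.3 to 30.6 times Abcg1 with RD and 4.42 to 5.96 times with HCD.

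Of a list of 20 other known LXR target genes, 19 were tested, of which 3 were called higher and 1 lower, with a median log2 fold change of 0.52 and 12 of 19 above 0. Srebf1, which encodes the lipogenic factor SREBP-1, was at 231, 179 and 269 CPM with RD and 824, 1020 and 1159 CPM with HCD. The lowest HCD liver lay far above the highest RD liver. Its log2 fold change was 2.14 (SE 0.21, adjusted p = 0.00407 in edgeR), and the call held when each liver was left out. Apoc1 and Apoe, neighbouring apolipoprotein genes, rose by 1.23 (adjusted p = 0.0215) and 1.01 (adjusted p = 0.0373) in edgeR on the log2 scale. Cyp7a1, the rate-limiting enzyme of bile acid synthesis and an LXR target in mice, fell by 1.75 on the log2 scale (adjusted p = 0.0453 in edgeR), from 102 to 109 CPM with RD to 48.9, 30.0 and 13.7 CPM with HCD. These last 3 calls were fragile. Apoe and Apoc1 were each lost without RD replicate 1, 2 or 3 or HCD replicate 3 (adjusted p up to 0.146 and 0.113 in edgeR), and Cyp7a1 without RD replicate 1, 2 or 3 or HCD replicate 2 (adjusted p up to 0.152).

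The enzymes of fatty acid synthesis in this list did not pass the test, and 4 of 5 had a log2 fold change below 0, opposite in sign to Srebf1. They are named here after their values were seen. Acly, which makes cytosolic acetyl-CoA, was at 178, 218 and 386 CPM with RD and at 100.1, 120 and 136 CPM with HCD. The diets did not overlap, at a log2 fold change of -1.14 (adjusted p = 0.0676 in edgeR), and DESeq2 (adjusted p = 0.000184) and edgeR without a filter on low counts (adjusted p = 0.0168) called it lower. Fasn, Acaca and Elovl6 were at -0.40, -0.33 and -0.31 on the log2 scale, with adjusted p of 0.275 to 0.398 in edgeR. Scd1, a fatty acid desaturase, was at 0.81 (adjusted p = 0.199 in edgeR), and DESeq2 called it higher (adjusted p = 0.027).

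Mylip, Lpcat3, Lpl and Pltp did not pass the test. Mylip, which encodes the ubiquitin ligase IDOL that degrades the LDL receptor, was 0.91 higher on the log2 scale (adjusted p = 0.289 in edgeR), with HCD values of 14.2, 9.44 and 3.57 CPM against 3.56 to 5.53 CPM with RD. Lpcat3, a phospholipid-remodelling enzyme, was at 73.1 to 94.4 CPM with RD and at 110 to 130 CPM with HCD, without overlap, at a log2 fold change of 0.56 (adjusted p = 0.0731 in edgeR). DESeq2 called Lpcat3 (adjusted p = 0.0296). Lpl, lipoprotein lipase, and Pltp, phospholipid transfer protein, had log2 fold changes of 0.25 and -0.25 with adjusted p of 0.728 and 0.735 in edgeR, and both changed sign when 1 RD liver was left out (Lpl -0.017 without RD replicate 2, Pltp 0.11 without RD replicate 3).

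Of 14 genes for retinoid X receptors and LXR coregulators, all tested, 1 was called higher and 1 lower, with a median log2 fold change of -0.14. Rxra, the main hepatic retinoid X receptor, was at 468 to 558 CPM with RD and at 298 to 335 CPM with HCD, a log2 fold change of -0.68 (SE 0.14, adjusted p = 0.0449 in edgeR). Rxrg, a minor form in liver, was at 2.95 to 4.12 CPM with RD and at 8.69 to 9.81 CPM with HCD, a log2 fold change of 1.315 (SE 0.24, adjusted p = 0.0299 in edgeR). The diets did not overlap for either gene, but both calls were lost when any 1 of the 6 livers was left out, with adjusted p of 0.0673 to 0.193 for Rxra and 0.0515 to 0.129 for Rxrg. Among 7 enzymes that make or remove oxysterol ligands, 4 were tested and none was called, with a median of -0.080. Cyp7b1, which hydroxylates oxysterols, was at 366 to 481 CPM with RD and at 19.9, 236 and 172 CPM with HCD. Its log2 fold change was -1.59 (adjusted p = 0.226 in edgeR) and became -1.07 with a call (adjusted p = 0.0398) without HCD replicate 1, the liver that stood apart in sex-linked genes. For Cyp46a1, a cholesterol hydroxylase, the log2 difference was 1.19 (adjusted p = 0.288 in edgeR) at levels of 0.478 to 3.54 CPM. The remaining genes tested were Cyp27a1 and Cyp39a1. Cyp27a1 was at -0.58 on the log2 scale (adjusted p = 0.0834 in edgeR), and its diets did not overlap. Cyp39a1 was at 0.42 (adjusted p = 0.471 in edgeR), and its diets overlapped.

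Of 9 genes of canalicular lipid transport and biliary sterol handling, 8 were tested and none was called, with a median log2 fold change of 0.21. Scarb1, the HDL receptor SR-BI, was at 218 to 255 CPM with RD and at 333 to 374 CPM with HCD. The diets did not overlap, at a log2 fold change of 0.63 just outside the threshold (adjusted p = 0.0514 in edgeR), and 6 of the 16 alternatives called it. Abcb4, the canalicular phospholipid transporter, was at 169 to 240 CPM with RD and at 298 to 353 CPM with HCD, at a log2 fold change of 0.58 (adjusted p = 0.107 in edgeR), and DESeq2 called it (adjusted p = 0.0281). Of 10 genes on the HDL side of efflux, all tested, only Apoe was called and the median was 0.44. For Apoa1, the acceptor of ABCA1 lipid, the log2 difference was -0.25 (adjusted p = 0.618 in edgeR). Of 14 other ABCA and ABCG family genes, 10 were tested and none was called, with a median of -0.099. The members of largest absolute change were Abcg2 at 0.54 (adjusted p = 0.453) and Abca6 at -0.38 (adjusted p = 0.192) in edgeR. Of 8 known regulators of Abcg5 and Abcg8, only Nr0b2, which encodes the corepressor SHP, was called. Nr0b2 was at 24.4, 44.7 and 37.5 CPM with RD and at 89.2, 69.4 and 111 CPM with HCD, a log2 fold change of 1.34 (adjusted p = 0.0303 in edgeR). That call was kept without HCD replicate 2 and lost without any other liver (adjusted p up to 0.112). The other 7, among them Hnf4a, Nr5a2 and the GATA genes Gata4 and Gata6, had a log2 fold change between -0.61 and 0.37, and the median of the list was -0.13.

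**Figure D4:**
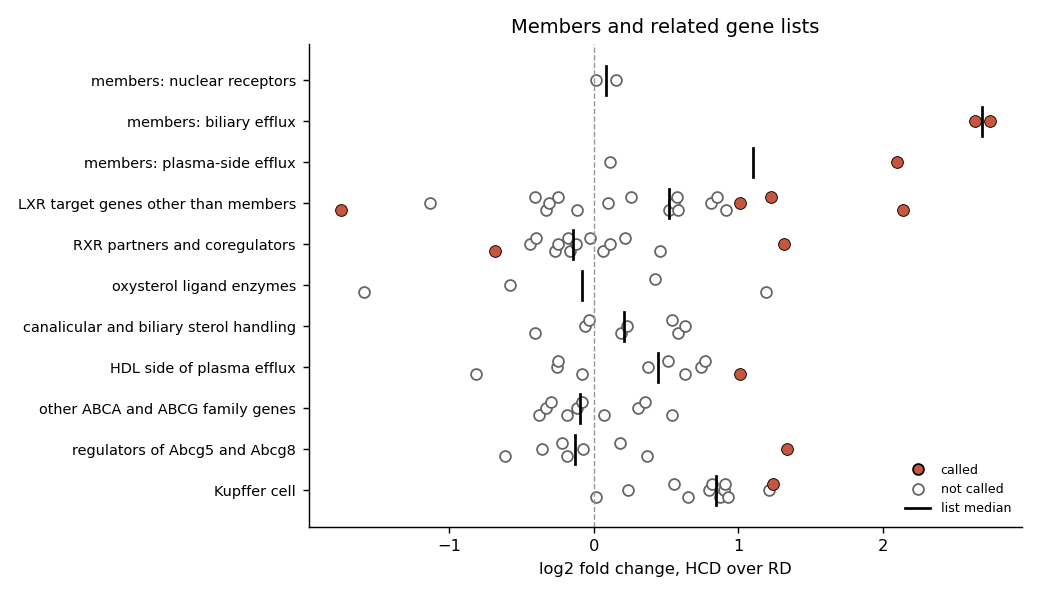
Log2 fold change of HCD over RD for the members and for each gene tested of the related lists and of the Kupffer cell markers; filled points were called by edgeR and vertical bars are list medians. Abcg5, Abcg8, Srebf1 and Abcg1 lie farthest to the right, and the Kupffer cell markers all lie to the right of 0.

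Kupffer cells, the macrophages of the liver, can hold Abca1 and Abcg1 RNA. All 12 of their markers had a log2 fold change above 0, with a median of 0.84, and 1 was called, Cd68 at 1.24 (adjusted p = 0.0277 in edgeR, kept only without HCD replicate 2 when single livers were left out). Their summed level was 180, 222 and 287 CPM with RD and 524, 467 and 245 CPM with HCD. Abcg1 in the same order was at 3.46, 2.93 and 5.99 CPM with RD and at 12.3, 25.9 and 15.5 CPM with HCD. RD replicate 3 had both the highest sum and the highest Abcg1 of its diet, and with HCD the highest sum was that of replicate 1 and the highest Abcg1 that of replicate 2. The defining markers Clec4f, Vsig4 and Timd4 were detected in every liver, at 43.1 to 120, 7.74 to 25.2 and 1.44 to 9.35 CPM. The summed levels of sinusoidal endothelial markers were 180 to 293 CPM with RD and 370, 230 and 255 CPM with HCD. Those of stellate cell markers were 350 to 387 CPM with RD and 636, 365 and 504 CPM with HCD. HCD replicate 1 was the highest in both, and the endothelial sums of the other HCD livers lay within the RD range. Those of cholangiocyte markers were 43.2 to 97.2 CPM with RD and 73.4 to 110 CPM with HCD. Most of these markers lay above 0 as well, with 9 of 10 endothelial markers (median log2 fold change 0.29), 10 of 10 stellate cell markers (0.50) and 5 of 6 cholangiocyte markers tested (0.62). None of these markers was called, nor was any of the 4 leukocyte markers tested, which all lay above 0 (0.16) and summed to 6.73 to 10.7 CPM with RD and 8.19 to 13.4 CPM with HCD. The part of other cell types in the values of the members was not tested.

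The genes most like Abcg5 and Abca1 across the 6 livers were different. Likeness was Pearson's r of log2(CPM + 0.5) among genes of at least 5 CPM on average, and it is a description over 6 libraries that differ in diet. Abcg8 had r = 0.993 with Abcg5 and Abcg1 had r = 0.950. Outside the members the highest values for Abcg5 were those of Gm10241, Magoh, Pfdn5, Cyp3a11 and Cpq, from r = 0.997 to 0.994. Their log2 fold changes were 0.51 to 1.06, all smaller than that of Abcg5, and Cyp3a11 encodes a drug-metabolising cytochrome. Abca1 had r = -0.032 with Abcg5 and 0.265 with Abcg1. The highest values for Abca1 were those of Tmem208, Guk1, Plekhb2, Rpn2 and Arhgef7, from r = 0.994 to 0.960, with log2 fold changes of 0.0099 to 0.10. None of these 5 genes passed the test between the diets, with adjusted p of 0.828 to 0.979 in edgeR.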

How the data were processed

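The 6 liver libraries, 3 per diet, were grouped by the sample labels. The authors deposited raw read counts per gene and FPKM. The log2 fold changes, p-values and adjusted p-values that the authors deposited beside the FPKM were not used. The submitters' processing notes name STAR, HTSeq, DESeq2, edgeR and GRCm39 without roles or versions, and the sequencing provider was Novogene. Implied gene lengths matched GENCODE M21 exon lengths within 0.1% for 94.8% to 95.0% of genes with at least 50 counts, so that positions are given on GRCm38 from M21.

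Counts were tested in R 4.3.3 with edgeR 4.0.16 (filterByExpr by diet, TMM factors 0.886 to 1.07, glmQLFit and glmQLFTest, no covariates), which left 13105 of 20673 genes. The biological coefficient of variation was 27.8%. Alternatives were DESeq2 1.42.0, other scalings and filters, limma 3.58.1 on log2 of FPKM plus 1 or 0.1, a length-trend correction, a replicate block and each liver left out. A count of 0 allows up to 0.13 to 0.218 CPM (3 counts), covering counting error only. The fits were also run on simulated counts, and the outcome of that run is not given here. Nothing says that same-numbered livers are paired, and no source used here names a preparation batch. Promoter sequences are from RefSeq, GRCm38.p6, which matched 5 of the 6 members by symbol and not Abcg1.

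The genes and lists were chosen with earlier results of these data known. All 6 members are named, and of each related list every called gene or, with none, the 2 of largest absolute log2 fold change, plus Srebf1, Mylip, Lpcat3, Pltp, Lpl, Rxra, Scarb1, Abcb4 and Apoa1. The 5 genes most like Abcg5 and Abca1 are named too. Scd1, Fasn, Acaca, Acly, Elovl6, Cyp27a1, Cyp39a1 and Cd68 were added after their values were seen. The searches for GATAA and for matches with 3 mismatches were chosen after the windows were seen. Figures were drawn with matplotlib 3.10.9.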

Additional observations from a re-analysis of the deposited data

How the results depend on the processing

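Of 96 values of the 6 members' log2 fold changes under 16 alternatives, 85 kept their direction and their side of the threshold. Abcg8 kept its call in all 16. Without 1 liver, Abcg5 ran from 2.50 to 3.27 with its call lost without RD replicate 1, and Abcg1 ran from 1.73 to 2.47 with 4 of 6 calls lost. Abcg1 also lost its call with the replicate block, at 2.08 (adjusted p = 0.0632 in edgeR). Nr1h2 turned to -0.046 with library sizes alone and ran from -0.022 to 0.072 without 1 liver, and Abca1 ran from -0.24 (without HCD replicate 2) to 0.26. Of the members, 3 were called higher under every alternative with all 6 livers except the replicate block (2), and 1 to 3 without 1 liver. Of the LXR target genes, DESeq2 called 5 higher and 2 lower, limma-trend on log2 FPKM plus 1 or 0.1 called 1 higher and 0 lower, the length-trend correction called 1 higher, and no filter on low counts called 2 lower. Upper-quartile factors, library sizes alone and the replicate block called 0 of them lower. Without 1 liver, 1 to 3 were called higher and 0 to 1 lower. The biliary minus plasma-side difference was 2.71 with Abca1 alone as the plasma-side gene. Without 1 liver, Lpl ran from -0.017 (without RD replicate 2) to 0.89 and Pltp from -0.64 to 0.11 (without RD replicate 3). The cause was not tested for any of these.

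Over all genes, 428 were called, 995 by DESeq2, 649 without a filter and 251 after the length-trend correction. Library sizes alone called 319, of which 158 were higher, against 255 higher of 428, and upper-quartile factors called 447, of which 291 were higher. Same-numbered livers correlated at -0.084 to 0.119 in their deviations from the diet means, which gives no pairing, and the replicate block called 136 genes. Without 1 liver 36 to 335 genes were called. With 3 livers per diet, the spread between livers sets the precision, and a missed threshold does not show that a gene stayed the same.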
